A study of Homo sapiens with 15 samples.

Results

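The genes described here encode the enzymes that break down stored triglyceride in fat cells and the proteins that switch this breakdown on and off. They were named by symbol as a set of 9: PNPLA2, LIPE, MGLL, ABHD5, PDE3B, ADRB1, ADRA2A, AQP7 and GK. Of these, 8 were measured, each by 1 probe set, among 17687 genes in all. GK had no probe set under its symbol or Entrez identifier and was not analysed here.

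In fat cells, triglyceride is cut in sequence: adipose triglyceride lipase (PNPLA2) removes the first fatty acid, hormone-sensitive lipase (LIPE) acts mainly on the diglyceride that is left, and monoglyceride lipase (MGLL) releases the last fatty acid and glycerol. Catecholamines start the process through beta-adrenergic receptors, cyclic AMP and protein kinase A, and alpha-2-adrenergic receptors and insulin restrain it, insulin largely through the phosphodiesterase PDE3B. Glycerol leaves the fat cell through the channel AQP7 or is phosphorylated by glycerol kinase (GK).

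Expression was measured on single-colour arrays in ASC52, a mesenchymal stem cell line from human adipose tissue carrying telomerase reverse transcriptase. The DED group (5 arrays) held cells taken through adipogenic differentiation for 14 days, begun 3 days after seeding, and then kept for 7 days in RPMI with 10% fetal bovine serum in which human breast carcinoma cells (the line MDA-MB-231) had grown; the submitters call this step dedifferentiation. The MA group (5 arrays) held cells differentiated in the same way and kept for the same 7 days in unconditioned RPMI with 10% serum, and the MSC group (5 arrays) held undifferentiated cells. The time at which MSC cells were harvested, their medium after seeding, and any dilution of the conditioned medium are not given in the sources, so in MA against MSC, and in DED against MSC, differentiation cannot be told apart from a difference in medium or culture time. All groups come from 1 cell line. The labels do not tie the arrays of a group to different cultures, and a p-value therefore speaks only of the variation among these arrays, which could be technical.

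Values are log2 intensities, and each difference is that of 2 group means in the order given, with its SE. A gene is said to rise or fall where the group named first was higher or lower, not where a change was followed over time. The test was limma, a linear model fitted to all genes at once, with 0.05 as the threshold on the adjusted p. For a scale of background, negative controls (612 probe sets) lay at 4.80 by their median and at 8.31 by their 95th percentile. A fold is given only where both group means exceed that percentile. As a check of the labels, 9 fat cell markers averaged 9.44 to 10.64 per array in DED and 11.64 to 11.74 in MA, against 5.52 to 5.72 in MSC, and 6 stem cell markers averaged 10.85 to 11.26 in DED and 10.79 to 11.10 in MA, against 12.04 to 12.43 in MSC. In DED against MA, 8 of the 9 fat cell markers fell, against 13.0% of all genes. The exception was LEP, which averaged 7.40 in DED and 6.73 in MA and did not pass (limma adjusted p = 0.078). In DED against MSC, 8 of the 9 were higher, against 17.1% of all genes. There CEBPA did not pass, with 5.43 in DED and 5.30 in MSC (limma adjusted p = 0.53). The stem cell markers did not move together. PDGFRA averaged 16.36 in DED, 16.04 in MA and 14.91 in MSC. In the same order PI16 averaged 5.08, 5.03 and 9.05, and DPP4 6.70, 6.92 and 9.35. THY1 averaged 12.80, 12.04 and 13.59, ENG 12.36, 11.62 and 12.80, and NT5E 13.13, 13.83 and 13.92. DED array 1 stood apart, with a fat cell average of 10.64 while DED arrays 2 to 5 averaged 9.44 to 9.74, so that the differences of the 5 members that passed the test are given with and without it. None of the 5 measured epithelial carcinoma markers (KRT8, KRT18, KRT19, EPCAM and CDH1) passed the test in any comparison; they averaged 5.76 to 6.04 per DED array, 5.77 to 5.89 per MA array and 5.76 to 6.08 per MSC array, and 4 of the 5 group means lay under the control percentile in each group. The 5 leukocyte markers averaged 6.22 to 6.64 in DED, 6.63 to 6.82 in MA and 6.47 to 6.70 in MSC, and the 5 endothelial markers 5.16 to 5.51, 5.35 to 5.54 and 6.09 to 6.34 in the same order. CD68, a leukocyte marker, moved in the same directions as the members that changed in DED against MA and in MA against MSC: it averaged 7.97 ± 0.43 in DED, 9.15 ± 0.13 in MA and 8.33 ± 0.17 in MSC (SD, n = 5 each), fell by 1.18 in DED against MA (limma adjusted p = 1.0e-05) and rose by 0.82 in MA against MSC (limma adjusted p = 3.8e-04), while the other 4 leukocyte markers did not pass in any comparison. TEK was the only endothelial marker that passed, and fell by 3.98 in MA against MSC (limma adjusted p = 1.3e-12) and by 4.38 in DED against MSC (limma adjusted p = 1.9e-13). Their part in the results was not tested.

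Sequence upstream of the start sites was taken from RefSeq (GRCh38.p14), where 7 of the 9 members had an entry. The 250 bases before the start site are shown for PNPLA2, LIPE and AQP7 because these members moved in the same direction in every comparison and each has an entry. LIPE has 2 annotated start sites, and 1 probe set cannot tell their transcripts apart. Letters read 5′ to 3′ along the gene's strand, and capitals mark matches on either strand to any of 4 short motifs. These are AGGTCA, the half-site bound by nuclear receptors such as PPARG; the CCAAT box; the GC box, GGGCGG; and the first letters of a cyclic AMP response element, TGACG. The TATA box (letters TATAAA) and the full response element (letters TGACGTCA, which contain the shorter form) were searched too and had no match in the windows shown.
PNPLA2, chr11:818664-818913, plus strand: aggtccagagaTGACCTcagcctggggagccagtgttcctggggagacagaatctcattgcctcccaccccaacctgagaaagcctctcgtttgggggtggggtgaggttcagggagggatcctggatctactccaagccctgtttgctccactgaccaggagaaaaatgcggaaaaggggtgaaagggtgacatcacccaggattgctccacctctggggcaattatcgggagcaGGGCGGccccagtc
LIPE, upstream start, chr19:42427389-42427638, minus strand: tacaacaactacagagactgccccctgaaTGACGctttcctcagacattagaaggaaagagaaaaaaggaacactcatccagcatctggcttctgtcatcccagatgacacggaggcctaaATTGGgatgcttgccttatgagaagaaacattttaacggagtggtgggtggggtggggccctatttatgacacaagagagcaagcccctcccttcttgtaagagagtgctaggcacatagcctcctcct
LIPE, downstream start, chr19:42423586-42423835, minus strand: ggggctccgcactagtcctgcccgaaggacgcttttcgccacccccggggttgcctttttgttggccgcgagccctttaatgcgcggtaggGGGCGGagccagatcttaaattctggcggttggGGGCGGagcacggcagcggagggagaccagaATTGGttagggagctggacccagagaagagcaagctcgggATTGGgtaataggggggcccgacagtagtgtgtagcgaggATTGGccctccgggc
AQP7, chr9:33402569-33402818, minus strand: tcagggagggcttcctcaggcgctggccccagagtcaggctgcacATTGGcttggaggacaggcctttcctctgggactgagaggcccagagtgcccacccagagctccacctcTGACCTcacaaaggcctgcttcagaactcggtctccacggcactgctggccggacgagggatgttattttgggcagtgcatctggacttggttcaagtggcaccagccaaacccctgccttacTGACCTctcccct

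The letters AGGTCA were found once before PNPLA2, 239 bases from the start site, and at 136 and 13 bases before AQP7. At least 1 match is present in 12.1% of the 35116 windows of this length, and 2 or more in 1.02%. Neither LIPE window held it. CCAAT was found 3 times before the downstream LIPE start, at 95, 55 and 15 bases. It also occurred once before the upstream LIPE start and once before AQP7; 32.0% of all windows hold it at least once and 2.93% hold it 3 times or more. GGGCGG was present before PNPLA2 and the downstream LIPE start, as in 42.6% of all windows, and TGACG before the upstream LIPE start, as in 21.2%. The TATA box is held by 10.7% of all windows and the full response element by 1.65%. These matches describe letters and do not show that a factor binds there.

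In DED against MA, the comparison of conditioned with control medium, 5 of the 8 measured members changed: PNPLA2, LIPE, MGLL, PDE3B and AQP7 fell, with log2 differences of -2.79 to -1.47. The arrays of DED and MA did not overlap in 4 of these, against 9.48% of all genes lower without overlap. None rose, and ABHD5, ADRB1 and ADRA2A did not pass the test. Of all genes, 25.9% passed it in this comparison and 13.0% fell. The median difference was -1.53 over the 8 members and 0.02 over all genes. In MA against MSC, the same 5 genes rose by 1.16 to 5.73 (33.0% of all genes passed, 15.4% rising and 17.6% falling), all without overlap, against 12.4% of all genes higher without overlap, with a median of 2.39 over the members and 0.00 over all genes. In DED against MSC, PNPLA2, LIPE, PDE3B and AQP7 were higher and MGLL was lower (33.4% of all genes passed, 17.1% higher and 16.4% lower), again without overlap, which held for 12.4% of all genes in the higher and 12.7% in the lower direction. The medians were 1.03 over the members and 0.03 over all genes. Without DED array 1, and without DED arrays 1 and 3, 5 members again passed in DED against MA and in DED against MSC. The comparisons share arrays, so they are not independent of each other. In these bulk samples, fewer fat cells and less RNA per fat cell cannot be told apart.

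**Figure D1:**
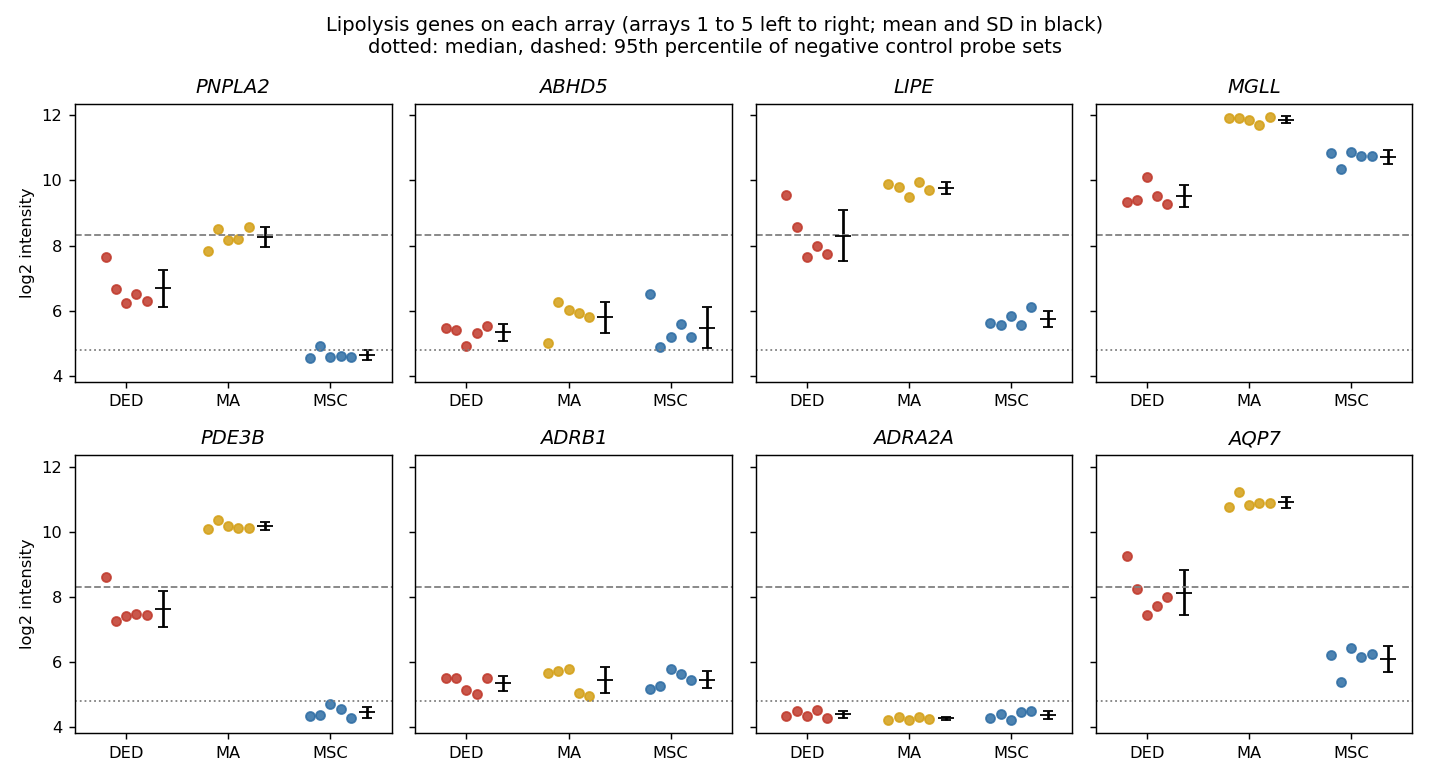
Log2 intensity of the 8 measured members on each array, with DED, MA and MSC arrays from left to right, the mean and SD of each group in black, a dotted line at the median and a dashed line at the 95th percentile of the negative controls. PNPLA2, LIPE, PDE3B and AQP7 are highest in MA and lowest in MSC, MGLL is lowest in DED, and the other 3 genes lie under the control percentile of 8.31 with overlapping groups. The PNPLA2 means also lie under that percentile in every group.

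PNPLA2, the lipase of the first step, had 7.65, 6.67, 6.24, 6.51 and 6.31 on DED arrays 1 to 5. The MA arrays had 7.83, 8.51, 8.17, 8.19 and 8.58, and the MSC arrays 4.54, 4.91, 4.58, 4.62 and 4.57. No groups overlapped, although DED array 1 came close to the lowest MA array. The DED mean was 6.68 ± 0.57 and the MA mean 8.26 ± 0.30 (SD, n = 5 each), a difference of -1.58 (SE 0.21, limma adjusted p = 7.1e-06). Both means lay under the control percentile of 8.31, so the size of this difference depends on background. MA was 3.61 above MSC, whose mean of 4.64 ± 0.15 lay under the control median (SE 0.21, limma adjusted p = 2.7e-11), and DED was 2.03 above MSC (limma adjusted p = 1.2e-07). Without DED array 1 the difference of DED from MA was -1.82 (limma adjusted p = 1.7e-08) and that from MSC 1.79 (limma adjusted p = 1.0e-08).

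LIPE, the hormone-sensitive lipase that protein kinase A activates, had 9.55, 8.58, 7.64, 7.99 and 7.73 on the DED arrays, 9.90, 9.81, 9.49, 9.94 and 9.71 on the MA arrays and 5.62, 5.55, 5.84, 5.56 and 6.11 on the MSC arrays. DED array 1 lay above the lowest MA array, and the other 4 DED arrays lay below all 5 MA arrays. DED averaged 8.30 ± 0.79 and MA 9.77 ± 0.18 (SD, n = 5 each), a difference of -1.47 (SE 0.26, limma adjusted p = 1.9e-04) that was -1.78 without DED array 1 (limma adjusted p = 1.9e-07). Against the MSC mean of 5.74 ± 0.24, MA was 4.03 higher (limma adjusted p = 1.2e-10) and DED 2.56 higher (limma adjusted p = 9.2e-08; 2.25 without DED array 1), with no overlap in either case.

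MGLL, the lipase of the last step, followed another order: its lowest group was DED. The DED arrays had 9.33, 9.39, 10.12, 9.53 and 9.29, the MA arrays 11.93, 11.92, 11.86, 11.70 and 11.95, and the MSC arrays 10.83, 10.35, 10.88, 10.74 and 10.75. All 3 groups were apart, with the highest DED array, array 3, below the lowest MSC array. DED (9.53 ± 0.34) differed by -2.34 from MA (11.87 ± 0.10), 5.06-fold lower (SE 0.15, limma adjusted p = 2.2e-10; -2.29 without DED array 1). From MSC (10.71 ± 0.21) it differed by -1.18, 2.26-fold lower (SE 0.15, limma adjusted p = 1.6e-06; SD, n = 5 each), or by -1.13 without DED array 1 (limma adjusted p = 7.8e-06). MA was 1.16 above MSC, a fold of 2.24 (limma adjusted p = 2.0e-06). Unlike the other members that moved, MGLL was well above the control percentile before differentiation, and DED array 1 was not its highest DED array.

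ABHD5, the co-activator that PNPLA2 needs for full activity, did not pass the test in any comparison. Its values were 5.48, 5.42, 4.90, 5.31 and 5.53 in DED, 5.01, 6.27, 6.01, 5.94 and 5.79 in MA, and 6.52, 4.89, 5.19, 5.60 and 5.18 in MSC, all under the control percentile and overlapping. The difference of DED from MA was -0.48 (95% interval -1.01 to 0.06, limma adjusted p = 0.2). It passed when MA array 1, the lowest of its group, was left out (-0.67, limma adjusted p = 0.049). MA differed from MSC by 0.33 (95% interval -0.21 to 0.86, limma adjusted p = 0.37), and by 0.59 without MSC array 1, the highest of its group (limma adjusted p = 0.039). For DED against MSC the value was -0.15 (95% interval -0.68 to 0.39, limma adjusted p = 0.72).

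PDE3B, the phosphodiesterase through which insulin lowers cyclic AMP in fat cells, rose in MA against MSC and fell in DED against MA. Its DED arrays had 8.62, 7.26, 7.42, 7.49 and 7.43, its MA arrays 10.09, 10.37, 10.19, 10.11 and 10.13, and its MSC arrays 4.33, 4.37, 4.70, 4.56 and 4.29. The 3 groups were apart and the MSC arrays were all under the control median. DED averaged 7.64 ± 0.55, MA 10.18 ± 0.11 and MSC 4.45 ± 0.17 (SD, n = 5 each). The difference of DED from MA was -2.53 (SE 0.19, limma adjusted p = 3.2e-09), and -2.78 (limma adjusted p = 1.8e-12) without DED array 1, which lay far above the other 4 DED arrays. MA was 5.73 above MSC (SE 0.19, limma adjusted p = 6.2e-15) and DED was 3.19 above MSC (limma adjusted p = 3.2e-11; 2.95 without DED array 1).

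Of the catecholamine receptors, neither ADRB1, which raises cyclic AMP, nor ADRA2A, which lowers it, passed the test in any comparison. ADRB1 averaged 5.34 ± 0.24 in DED (5.02 to 5.52), 5.44 ± 0.40 in MA (4.95 to 5.80) and 5.46 ± 0.26 in MSC (5.16 to 5.78). Its 95% intervals ran from -0.46 to 0.27 for DED against MA, from -0.39 to 0.35 for MA against MSC and from -0.48 to 0.25 for DED against MSC (limma adjusted p = 0.76, 0.95 and 0.68 in that order). ADRA2A averaged 4.39 ± 0.11 in DED, 4.27 ± 0.04 in MA and 4.37 ± 0.13 in MSC (SD, n = 5 each), and all 15 arrays lay under the control median. A p that misses the threshold does not show that these receptors' levels were the same. Their sister receptor ADRB3, the beta receptor best known from mouse brown fat, was also under the control median, with 3.90 ± 0.18 in DED, 3.93 ± 0.22 in MA and 3.69 ± 0.10 in MSC, and did not pass the test (limma adjusted p = 0.14 to 0.9).

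AQP7, the channel that lets glycerol out of the fat cell, changed in the same directions. The DED arrays had 9.26, 8.23, 7.43, 7.71 and 8.01, the MA arrays 10.77, 11.21, 10.83, 10.89 and 10.87, and the MSC arrays 6.22, 5.39, 6.44, 6.15 and 6.26. No groups overlapped, and DED array 1 was again the highest of its group. DED (8.13 ± 0.70) differed from MA (10.91 ± 0.17) by -2.79 (SE 0.25, limma adjusted p = 5.1e-08), and by -3.07 (limma adjusted p = 4.6e-10) without DED array 1. MA was 4.82 above MSC (6.09 ± 0.41; SD, n = 5 each; SE 0.25, limma adjusted p = 6.3e-12), and DED was 2.04 above MSC (limma adjusted p = 1.8e-06; 1.75 without DED array 1). The reference gene table lists 5 AQP7 pseudogenes, and whether the probe set also reads their transcripts was not tested.

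**Figure D2:**
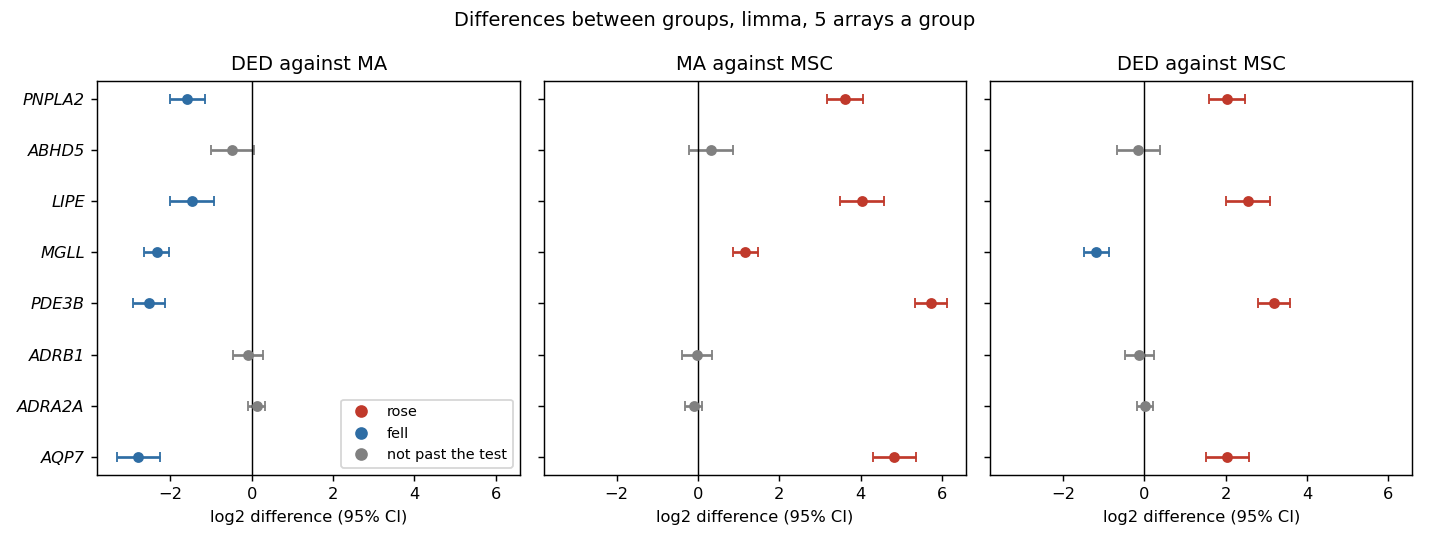
Log2 differences of the 8 members with 95% confidence intervals for DED against MA, MA against MSC and DED against MSC; red points rose and blue points fell by the limma test at an adjusted p under 0.05, and grey points did not pass. DED against MA holds 5 falls and no rise, MA against MSC 5 rises, and DED against MSC 4 higher members with MGLL lower.

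How far the DED cells stood between the other groups was read as a share of the log2 distance from the MSC mean to the MA mean, where 100% is the MA mean and a negative share lies below MSC. The series holds no array from the end of the 14 days of differentiation. A loss and a smaller rise in DED therefore cannot be told apart. PDE3B lay at 72.8, 49.1, 51.9, 53.1 and 52.0% on DED arrays 1 to 5, PNPLA2 at 83.2, 56.1, 44.2, 51.7 and 46.1%, and LIPE at 94.5, 70.5, 47.2, 55.9 and 49.4%. AQP7 lay at 65.7, 44.3, 27.7, 33.6 and 39.8%. The MSC means of all 4 lay under the control percentile, and those of PNPLA2 and PDE3B under the control median, so the zero of each share depends on background and the shares are not ranked between genes. DED array 1 had the highest share in each of these 4 genes. Leaving it out changed the mean share to 51.5% for PDE3B, 49.5% for PNPLA2, 55.8% for LIPE and 36.4% for AQP7, against 55.8, 56.3, 63.5 and 42.2% with it. MGLL lay below its MSC level on every DED array, at a mean of -101%. DED array 1 was the highest DED array in 24.7% of all genes and in 45.7% of the 1086 genes that rose in MA against MSC and fell in DED against MA. The part of its higher fat cell marker level in these values was not tested.

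**Figure D3:**
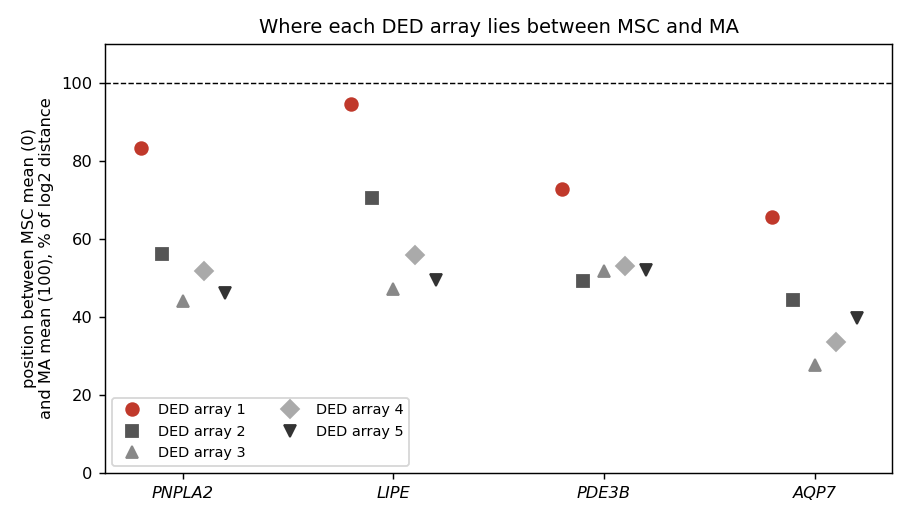
Position of each DED array between the MSC mean (0) and the MA mean (100%, dashed line), in percent of the log2 distance, for PNPLA2, LIPE, PDE3B and AQP7. DED array 1, in red, is the highest point in all 4 genes, and the points of AQP7 run from 27.7 to 65.7%.

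Whether members that act in sequence or against each other changed unequally was tested on the log2 difference of 2 genes on the same array, in 7 pairs and 3 comparisons, with p-values adjusted over the 21 two-sided exact permutation tests. The smallest p that 5 arrays against 5 can give is 0.0079, adjusted here to 0.015, and 12 of the 21 tests passed. Of these 12, 8 are in pairs that hold ABHD5 or ADRB1, which did not pass the test themselves and lay under the control percentile in every group, so that such a difference follows the change of its partner. PDE3B minus ADRB1 is one of them, with -2.44 for DED against MA, 5.75 for MA against MSC and 3.31 for DED against MSC (exact permutation adjusted p = 0.015 each). ADRA2A minus ADRB1 did not pass, with 0.22, -0.08 and 0.14 in the same order (exact permutation adjusted p = 0.45, 0.71 and 0.59). PDE3B minus LIPE averaged -0.65 ± 0.46 in DED, 0.41 ± 0.23 in MA and -1.29 ± 0.32 in MSC (SD, n = 5 each). DED differed from MA by -1.06 with no overlap (exact permutation adjusted p = 0.015; -0.99 and 0.028 without DED array 1), so PDE3B fell further than LIPE on the log2 scale, although both DED means lay under the control percentile. It was 1.69 higher in MA than in MSC (exact permutation adjusted p = 0.015). In MSC the PDE3B mean lay under the control median and the LIPE mean under the control percentile, so the size of this difference depends on background. In DED against MSC the 0.63 did not pass (exact permutation adjusted p = 0.083), except without DED array 2 (0.80, exact permutation adjusted p = 0.028).

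LIPE minus PNPLA2, the lipases of the first 2 steps, averaged 1.62 ± 0.26 in DED, 1.51 ± 0.39 in MA and 1.09 ± 0.34 in MSC (SD, n = 5 each). The difference of 0.11 between DED and MA did not pass (exact permutation adjusted p = 0.64). Those of 0.42 for MA against MSC and 0.53 for DED against MSC passed, among the alternatives run, only without MSC array 5 (0.53 and 0.64, exact permutation adjusted p = 0.048 and 0.026, against 0.15 and 0.051 with it). MGLL minus LIPE averaged 1.23 ± 1.01 in DED, 2.10 ± 0.23 in MA and 4.97 ± 0.25 in MSC. Its differences of -2.87 for MA against MSC and -3.74 for DED against MSC passed (exact permutation adjusted p = 0.015 each). The -0.87 of DED against MA did not (exact permutation adjusted p = 0.13), except without DED array 3 (-1.18, exact permutation adjusted p = 0.028), and was -0.50 without DED array 1 (exact permutation adjusted p = 0.25), where DED against MSC gave -3.38 (exact permutation adjusted p = 0.028). In MSC the LIPE mean lay under the control percentile and the PNPLA2 mean under the control median. The size of each difference from MSC in these pairs therefore depends on background.

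G0S2, which inhibits PNPLA2, had 9.31, 8.92, 9.03, 8.89 and 8.93 in DED, 9.83, 9.56, 9.51, 9.75 and 9.96 in MA, and 7.64, 7.48, 8.03, 7.82 and 7.86 in MSC. The groups were apart. G0S2 differed by -0.71 between DED and MA, 1.63-fold lower in DED (SE 0.13, limma adjusted p = 2.5e-04), 1.96 higher in MA than in MSC (limma adjusted p = 1.5e-10) and 1.25 higher in DED than in MSC (limma adjusted p = 1.0e-07). G0S2 minus ABHD5 averaged 3.69 ± 0.29 in DED, 3.92 ± 0.60 in MA and 2.29 ± 0.69 in MSC (SD, n = 5 each). It was 1.63 higher in MA than in MSC and 1.40 higher in DED than in MSC (exact permutation adjusted p = 0.015 each), while DED and MA differed by -0.23 (exact permutation adjusted p = 0.58). ABHD5 minus PNPLA2 averaged -1.35 ± 0.51 in DED, -2.45 ± 0.32 in MA and 0.83 ± 0.74 in MSC. The 1.10 of DED against MA passed (exact permutation adjusted p = 0.028) but was lost in 10 of 13 alternatives (exact permutation adjusted p = 0.028 to 0.11). Among those 10 is the replicate block, where 5 pairs cannot give an exact p under 0.0625. Another left out DED arrays 1 and 3 (difference 1.38), where the exact p cannot be under 0.0357. The differences of -3.28 for MA against MSC and -2.18 for DED against MSC passed (exact permutation adjusted p = 0.015 each). ABHD5 was under the control percentile throughout, so these values follow the changes of G0S2 and PNPLA2 and say nothing about a balance with ABHD5.

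**Figure D4:**
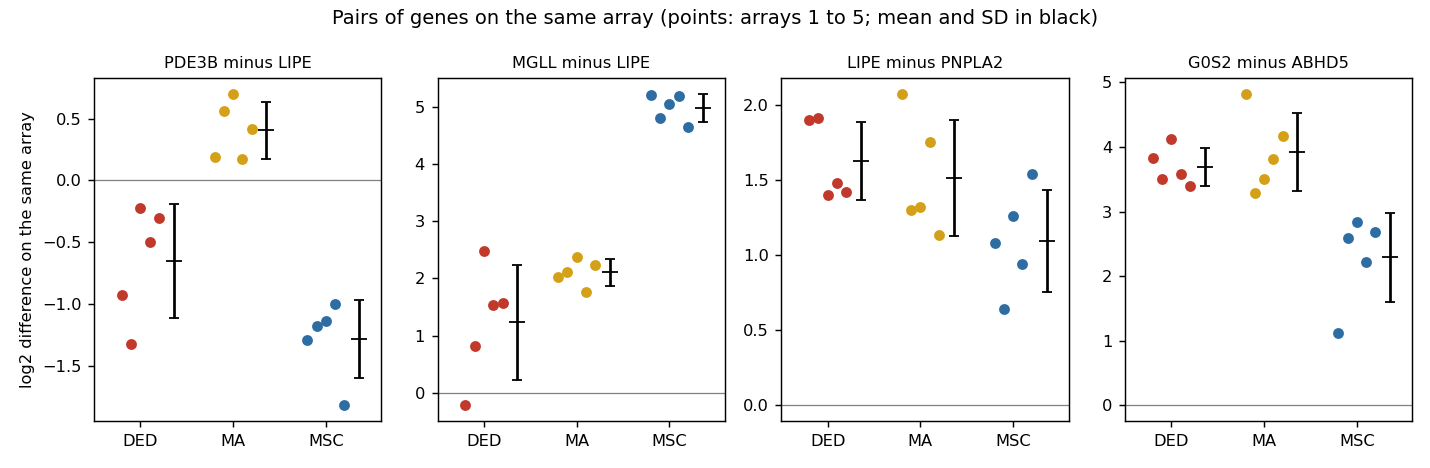
Log2 difference of 2 genes on the same array for 4 of the pairs tested, DED, MA and MSC arrays from left to right, with the mean and SD of each group in black. PDE3B minus LIPE is lower on every DED array than on any MA array, and LIPE minus PNPLA2 overlaps between groups.

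The genes whose pattern was most like each member's were found by Pearson correlation over the 15 arrays, which here mostly reads the 3 group levels and is a description only. For PNPLA2 they were CHI3L2 (0.991), FASN (0.99), the fatty acid synthase, and LGALS12 (0.99), a lectin of fat cells. LIPE was most like PLIN1 (0.992), the droplet coat protein that controls its access, KIAA0040 (0.989) and CHI3L2 (0.989). PDE3B was most like CHI3L2 (0.995), CYB5A (0.993) and LGALS12 (0.993), and AQP7 most like CFD (0.993), the serine protease adipsin, RETSAT (0.99) and LAMA4 (0.99). MGLL had other neighbours, SCUBE3 (0.974), PYGB (0.973), the brain-type glycogen phosphorylase, and RSRC1 (0.969).

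The other genes of the pathway were taken from 9 lists of 116 genes, of which 106 were measured. In DED against MA 11 of them rose and 35 fell, with a median of -0.13. In MA against MSC 42 rose and 11 fell (median 0.21), and in DED against MSC 37 were higher and 15 lower (median 0.17). Of all genes, 12.9% rose and 13.0% fell in DED against MA, 15.4% rose and 17.6% fell in MA against MSC, and 17.1% were higher and 16.4% lower in DED against MSC. These shares are also the background for the counts of each list that follows, and no test of the lists was run. Without DED array 1, 11 rose and 36 fell in DED against MA, and 38 were higher and 14 lower in DED against MSC. The difference of DED from MA without that array was -3.38 for CIDEC, -3.14 for PLIN1, -3.52 for GPD1, -2.90 for PRKAR2B and -3.55 for NPR1, whose values on all arrays follow, and the 35 genes outside the members that were named by rule and had passed in that comparison still did.

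Among 10 other lipases and hydrolases of acylglycerols, none rose and 1 fell in DED against MA. That gene was LIPA, the acid lipase of lysosomes, with 10.92 ± 0.50 in DED, 12.89 ± 0.13 in MA and 10.84 ± 0.14 in MSC (SD, n = 5 each), 3.92-fold lower in DED than in MA (limma adjusted p = 3.6e-08). In MA against MSC 4 rose and 1 fell. PNPLA3, a relative of PNPLA2, rose by 2.30 there (limma adjusted p = 6.9e-09) and showed -0.44 in DED against MA, which did not pass (limma adjusted p = 0.1) except without MA array 1 (limma adjusted p = 0.041). The PNPLA3 means lay under the control percentile in every group.

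Of 11 measured genes listed as gatekeepers on the lipid droplet, 2 rose and 7 fell in DED against MA. In MA against MSC 7 rose and 2 fell. The rises in the first comparison and the falls in the second include ABHD4, an enzyme of phospholipids rather than a droplet gatekeeper. The other rise in DED against MA was PLIN5, by 0.4 (limma adjusted p = 0.019). Its means lay under the control percentile in every group, and its call was lost in 2 of 19 alternatives. CIDEC, which enlarges droplets, averaged 13.11 ± 0.94 in DED and 16.09 ± 0.08 in MA, against 6.20 ± 0.32 in MSC (SD, n = 5 each), and was 7.89-fold lower in DED than in MA (limma adjusted p = 1.8e-07). PLIN1, which holds ABHD5 on the droplet until protein kinase A acts, averaged 9.34 ± 0.91, 12.09 ± 0.20 and 4.63 ± 0.64 in the same order and was 6.73-fold lower in DED than in MA (limma adjusted p = 2.8e-06). ABHD4, a relative of ABHD5 that acts on phospholipids, moved the other way: it rose by 1.34 in DED against MA, with no overlap (limma adjusted p = 1.8e-07), and fell by 0.75 in MA against MSC (limma adjusted p = 1.5e-04).

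Of 11 measured receptors listed as stimulating lipolysis, none rose and 4 fell in DED against MA, and 5 rose and 1 fell in MA against MSC. Both counts include NPR3, a clearance receptor of natriuretic peptides rather than a stimulator. It fell by 1.04 in DED against MA (limma adjusted p = 4.5e-06) and rose by 2.54 in MA against MSC (limma adjusted p = 5.5e-12). NPR1, the receptor of natriuretic peptides that works through cyclic GMP, had 7.39, 6.50, 6.71, 6.65 and 6.52 in DED, 10.17, 10.28, 10.16, 9.81 and 10.29 in MA, and 5.81, 6.19, 6.29, 6.30 and 6.12 in MSC. It fell by 3.39 in DED against MA (SE 0.16, limma adjusted p = 5.6e-12), and DED was 0.61 above MSC (limma adjusted p = 0.0042). GHR, the growth hormone receptor, fell by 2.37 in DED against MA (limma adjusted p = 4.5e-10) and rose by 4.22 in MA against MSC (limma adjusted p = 2.7e-14). Of 12 receptors that restrain lipolysis, 1 rose and 2 fell in DED against MA. ADORA1, the adenosine receptor that lowers cyclic AMP, had 5.46 ± 0.19 in DED, 7.59 ± 0.08 in MA and 6.07 ± 0.44 in MSC (SD, n = 5 each) and fell by 2.13 in DED against MA (limma adjusted p = 4.3e-09). PTGER3, a prostaglandin E receptor with the same coupling, fell by 1.05 (limma adjusted p = 2.4e-04), and the insulin receptor INSR rose by 0.67 (limma adjusted p = 0.0078). The means of ADORA1 and PTGER3 lay under the control percentile in every group.

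Downstream of the receptors, 5 of 12 G proteins and adenylyl cyclases fell in DED against MA and none rose. They were the stimulatory subunit GNAS, the inhibitory subunits GNAI2 and GNAI3, and the cyclases ADCY7 and ADCY8. The ADCY7 means lay under the control median in DED (3.98) and MA (4.32), and its call was lost in 2 of 18 alternatives. ADCY8 lay under that median in DED (4.66, against 5.41 in MA). GNAI1, an inhibitory G protein subunit, was 3.13-fold higher in MA than in MSC (limma adjusted p = 1.6e-10) and differed by 0.11 between DED and MA (limma adjusted p = 0.53). Of 14 subunits, anchors and inhibitors of protein kinases A and G, 3 rose and 4 fell in DED against MA, with the inhibitor PKIA among the falls. PRKAR2B, the regulatory subunit of protein kinase A that is abundant in fat cells, had 9.97, 8.53, 8.07, 8.43 and 8.32 in DED, 11.35, 11.47, 10.94, 11.13 and 11.31 in MA, and 5.06, 5.99, 6.17, 5.18 and 4.83 in MSC. It was 5.96-fold lower in DED than in MA (limma adjusted p = 1.1e-06) and rose by 5.79 in MA against MSC (limma adjusted p = 3.9e-12), with DED array 1 again the highest of its group. PRKG1, the kinase that cyclic GMP activates, was 2.86-fold higher in DED than in MA (limma adjusted p = 5.6e-09) and 1.51-fold lower in MA than in MSC (limma adjusted p = 4.7e-04). PKIA, an inhibitor of protein kinase A, fell by 0.60 in DED against MA (limma adjusted p = 8.6e-05) and by 1.73 in MA against MSC (limma adjusted p = 1.9e-11).

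Of 16 other phosphodiesterases measured, 3 rose and 4 fell in DED against MA, and 4 rose and 2 fell in MA against MSC. PDE4D, specific for cyclic AMP, had 9.08 ± 0.55 in DED, 7.45 ± 0.36 in MA and 7.71 ± 0.33 in MSC (SD, n = 5 each), higher in DED by 1.63 than in MA (limma adjusted p = 1.5e-05) and by 1.38 than in MSC (limma adjusted p = 6.4e-05). PDE1C, activated by calcium and calmodulin, was 2.52-fold higher in DED than in MA (limma adjusted p = 1.0e-03) and 3.26-fold lower in MA than in MSC (limma adjusted p = 5.1e-05). PDE7B was 2.34-fold lower in DED than in MA (limma adjusted p = 1.0e-04) and 3.99-fold higher in MA than in MSC (limma adjusted p = 1.2e-07). PDE1B fell by 1.12 in DED against MA (limma adjusted p = 3.2e-04) and rose by 2.19 in MA against MSC (limma adjusted p = 4.0e-08), with means under the control percentile in every group.

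On the route from insulin to PDE3B, 2 of 9 measured genes rose and 3 fell in DED against MA, and 7 rose and none fell in MA against MSC. IRS2, an adaptor of the insulin receptor, had 9.77, 9.52, 10.37, 10.15 and 10.13 in DED, 7.90, 7.79, 7.93, 7.82 and 7.90 in MA, and 6.16, 5.94, 6.82, 6.50 and 6.57 in MSC. Its groups were apart with DED highest, 2.12 above MA (SE 0.16, limma adjusted p = 5.2e-09) and 3.59 above MSC (limma adjusted p = 4.6e-13). The sister adaptor IRS1 was 1.72-fold lower in DED than in MA (limma adjusted p = 6.0e-04). AKT2, the kinase that acts on PDE3B after insulin, was 1.70-fold lower in DED than in MA (limma adjusted p = 4.8e-05).

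Of 12 genes of glycerol transport and metabolism, 1 rose and 5 fell in DED against MA, and 6 rose and 1 fell in MA against MSC. GPD1, which makes glycerol 3-phosphate from a glycolytic intermediate, averaged 9.32 ± 0.91 in DED and 12.45 ± 0.21 in MA, against 4.31 ± 0.58 in MSC (SD, n = 5 each), and was 8.74-fold lower in DED than in MA (limma adjusted p = 3.6e-07). AQP3, another channel that passes glycerol, fell by 1.79 in DED against MA (limma adjusted p = 4.8e-07) and differed by 0.30 between DED and MSC (limma adjusted p = 0.26). PCK1, the cytosolic enzyme of glyceroneogenesis, was 1.81-fold lower in DED than in MA (limma adjusted p = 4.4e-04). Its mitochondrial counterpart PCK2 rose by 1.95 in DED against MA (limma adjusted p = 5.5e-07) and fell by 1.54 in MA against MSC (limma adjusted p = 7.0e-06). The other glycerol kinase genes are given because GK was not analysed, and were chosen after their values were seen. GK2 was under the control median in all 3 groups. GK5 averaged 10.30 ± 0.47 in DED, 10.80 ± 0.31 in MA and 9.55 ± 0.12 in MSC (SD, n = 5 each), 2.39-fold higher in MA than in MSC (limma adjusted p = 1.8e-05), with -0.50 for DED against MA (limma adjusted p = 0.054), which passed in 6 of 19 alternatives (limma adjusted p = 0.021 to 0.15 over all 19). These left out dim genes (0.044), MA array 1 (0.021), DED array 1 (0.023) or DED array 2 (0.032), weighted the arrays (0.044), or used an intensity trend with a robust fit (0.037; each a limma adjusted p).

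**Figure D5:**
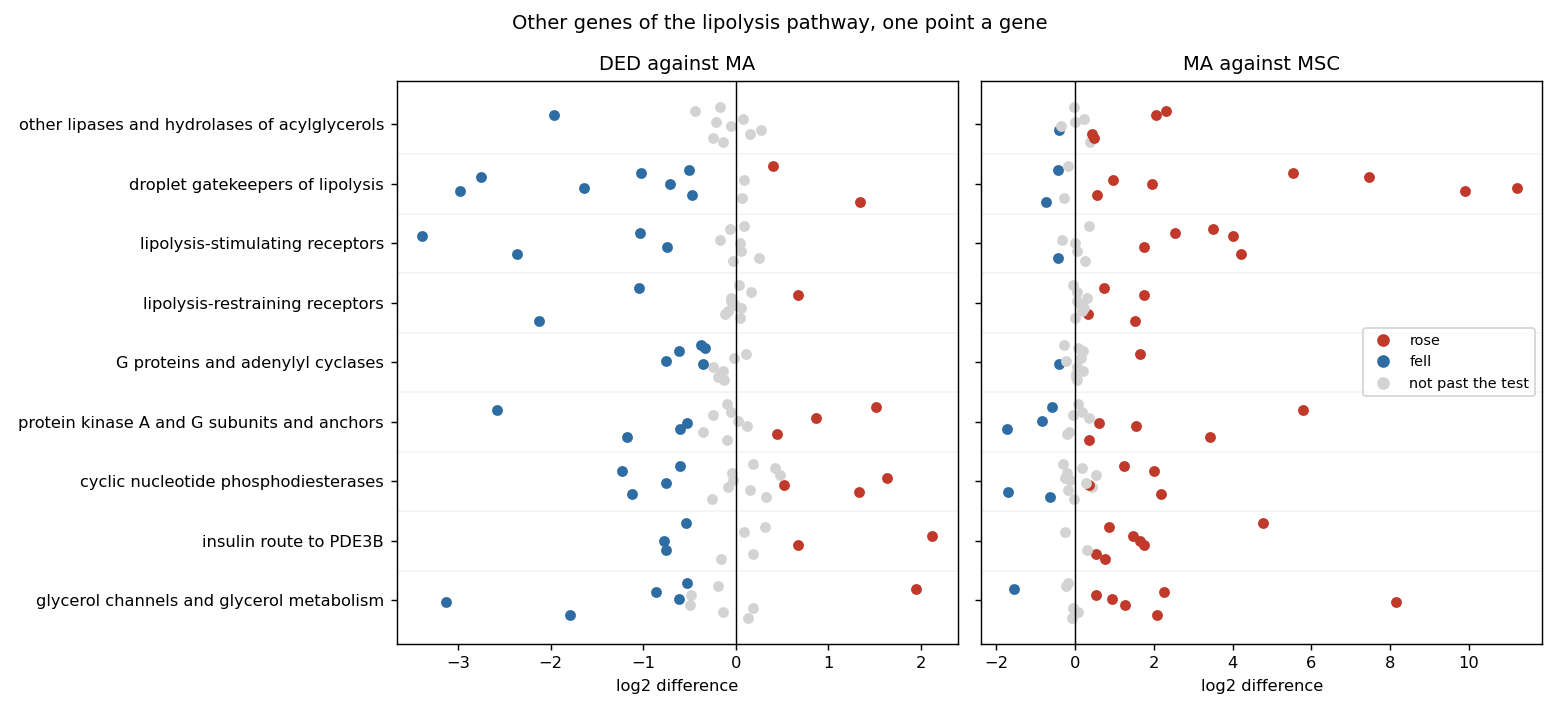
Log2 differences of the 106 other measured genes of the pathway by list, for DED against MA on the left and MA against MSC on the right; red points rose and blue points fell by the limma test, and grey points did not pass. In DED against MA 35 genes fell and 11 rose, and in MA against MSC 42 rose and 11 fell; INSR is plotted in both of its lists.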

How the data were processed

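Expression was measured on 15 single-colour arrays, 5 per group, grouped by their titles. The authors deposited 1 table of log2 intensities, for which the submitters' processing notes name RMA and Transcriptome Analysis Console; no version, RMA variant or genome build is given in these sources. RMA corrects background and normalizes between arrays, and a change common to every gene is therefore lost. The table's 24351 probe sets include 2903 controls and 3739 with no symbol, which were left out; 17709 carry 1 symbol. For 20 genes with several probe sets the one with the highest mean was kept, which left 17687 genes with no filter on dim genes.

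The gene test was limma 3.58.1 (R 4.3.3; lmFit, then eBayes, on all 15 arrays with a mean for each group and no covariates), two-sided, with Benjamini-Hochberg adjustment over all genes and a threshold of 0.05. Within-array differences were tested by exact permutation (Python 3.11.15). The number of arrays limits the precision. For limma alone, the recovery of known changes was checked on simulated data, and the outcome is not reported here.

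The members and lists were chosen with earlier results of these data known. Named genes are the 9 members, G0S2, ADRB3, and for each list and comparison the 2 genes that rose most and the 2 that fell most of those past the test, not all of which are named; values of a named gene are also given in comparisons where the rule did not pick it. For each member the 3 most correlated genes were taken. Alternatives were quantile normalization, a common median, removal of genes with a mean below the 25th percentile, single probe sets, array weights, a robust fit with an intensity trend, only the groups compared, the replicate block, each array left out, and DED arrays 1 and 3 left out together. Upstream sequences are RefSeq's.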

Additional observations from a re-analysis of the deposited data

Results flagged for a closer look

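In 6 of the 27 sets of 5 arrays (9 genes, the 8 members and G0S2, in 3 groups), 1 array lay far from the other 4, with a gap to its nearest neighbour of more than 0.71 of the group's range; chance alone flags about 5% of such sets. MGLL on DED array 3 had 10.12, against 9.29 to 9.53 on the other DED arrays, and PDE3B on DED array 1 had 8.62, against 7.26 to 7.49. AQP7 on MA array 2 had 11.21, against 10.77 to 10.89. MSC array 2 stood apart in 3 genes, with 4.91 for PNPLA2 (others 4.54 to 4.62), 10.35 for MGLL (others 10.74 to 10.88) and 5.39 for AQP7 (others 6.15 to 6.44). Without MSC array 2, the differences of MA from MSC were 3.68 for PNPLA2, 1.07 for MGLL and 4.65 for AQP7, and all 3 still passed the limma test.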

How the results depend on the processing

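Of 445 values of the members under the alternatives, 443 kept their direction where called and their side of the threshold, 2 passed where the main value did not (ABHD5 without MA array 1 and without MSC array 1), and 0 reversed. The number of genes past the limma test was 4130 to 4933 in DED against MA, 5394 to 6258 in MA against MSC and 5450 to 6376 in DED against MSC over all alternatives, against 4587, 5844 and 5914, and with each array left out in turn it was 4130 to 4776, 5394 to 5549 and 5450 to 5949. Members past the test numbered 5 to 6 in the first 2 comparisons and 5 in the third. Among 2729 values of other named genes 41 lost their call, 19 gained one and 0 reversed. Of the 21 within-array tests, 12 passed; with each array left out in turn the number was 11 to 14, and with DED arrays 1 and 3 left out together it was 5, where 3 arrays against 5 cannot give an exact p under 0.0357.

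Same-numbered arrays did not deviate together (correlations of -0.11 to 0.09, with 1 of 15 arrays correlating best with its own number). This cannot exclude that same-numbered arrays were prepared together, and the labels do not say whether the numbers pair the samples. With the replicate block, 4440, 5663 and 5738 genes passed in DED against MA, MA against MSC and DED against MSC, and 0 of the 24 member calls changed; for the within-array differences 0 passed, because 5 pairs cannot give an exact p under 0.0625. ADRA2A had no value with dim genes left out, and signals under the control percentile limit what can be said of ABHD5, ADRB1 and ADRA2A. The PNPLA2 means also lay under that percentile in every group (6.68 in DED, 8.26 in MA and 4.64 in MSC), so the sizes of its differences depend on background.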
